A study of Mus musculus with 13 samples.

Results

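The interferon response genes Stat2, Irf9, Irf7, Isg15, Ifit1, Ifit3, Oasl2, Bst2 and Ifitm3 were followed in single microglia of mice fed control diet or high-fat diet (HFD). They are 9 of the 17727 genes listed for all 13 plates, and were taken by name from the plate tables. Single CD45lo CD11b+ cells of C57BL/6J mice had been sorted into plates of 192 wells and sequenced by CEL-Seq2, a plate method that tags each captured mRNA molecule with a unique molecular identifier (UMI). The labels give brain as the tissue, and the study's methods give the hypothalamus for these libraries. Control mice had standard chow, and HFD mice had chow with 60% of its calories from fat for 1 day (1d), 3 days (3d), 1 week (1w), 4 weeks (4w), 9 weeks (9w) or 16 weeks (16w). The labels name no transgene or deletion. The names of the wells hold a further time label between 4 and 24 weeks, whose meaning is not explained. It differed between the diet groups: 9 weeks for all 1d cells, 14 for all 3d cells and 24 for all 9w cells. The other groups, controls among them, held more than 1 label. No comparison below has a term for it, so label and diet are not fully separated. The study describes the mice as male, and the labels give no sex. Diets and replicate identifiers came from the authors' table of wells, since the labels of the 13 libraries name only the comparison. The identifiers may not all be separate mice.

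A well was taken as a cell when it held at least 1500 transcripts over the genes the authors kept. Of 2496 wells, 1617 passed, with 722 control cells, 161 after 1d, 121 after 3d, 172 after 1w, 128 after 4w, 82 after 9w and 231 after 16w. Plates held 79 to 165 such cells. The median was 2830 UMIs per cell, between 2393 in the 1d group and 3672.5 in the 9w group. Microglial markers fitted the label: 1613 of the 1617 cells held at least 3 UMIs of a list with Cx3cr1, P2ry12 and Tmem119. Plates 4 and 5 stood apart from the rest, with 86.8% of all UMIs of the MHC class II genes (Cd74, H2-Aa, H2-Ab1 and H2-Eb1) on 12.2% of the cells. Plate 5 held no control cells and plate 4 held 7.

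Type I interferons bind the receptor formed by IFNAR1 and IFNAR2, whose kinases phosphorylate STAT2. With IRF9 it forms part of the complex ISGF3, which binds the interferon-stimulated response element (ISRE) in front of its target genes. Among the targets, IRF7 amplifies interferon production, ISG15 is a ubiquitin-like modifier, the IFIT proteins bind viral RNA, OASL2 belongs to the oligoadenylate synthetase-like family, and BST2 (tetherin) and IFITM3 act at membranes against enveloped viruses. Microglia respond to interferons in infection, ageing and neurodegeneration.

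The genes lie on 7 chromosomes of GRCm38. In the GENCODE annotation Stat2 is at chr10:128270559-128292849 and Irf9 at chr14:55603571-55610030, both on the plus strand. Irf7 at chr7:141262706-141266481 and Ifitm3 at chr7:141009586-141010770 share a chromosome and the minus strand. Isg15 is at chr4:156199424-156200818 and Bst2 at chr8:71534255-71537456, both on the minus strand, and Oasl2 is at chr5:114896936-114912234 on the plus strand. Ifit3 at chr19:34583531-34588731 and Ifit1 at chr19:34640871-34650009 flank Ifit3b at chr19:34607970-34613401, a near-identical copy of Ifit3. Reads shared by Ifit3 and Ifit3b cannot be told apart, so that values of Ifit3 are uncertain. The authors' filtered gene list leaves Ifit3 out, and its values came from the plate tables.

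The letters that ISGF3 recognises are shown for the genes that hold them, as a feature outside the counts. The motif GAAANNGAAA, or its reverse complement TTTCNNTTTC, was searched in the 250 bases before each RefSeq gene start (build GRCm38.p6). It was found for 5 of the 9 genes, against 3.463% of 27025 genes and 2.977% of 32851 promoters. Each stretch is written from 5′ to 3′ on the strand of its gene, with the matches in capitals.
Stat2 (chr10:128270261-128270300, plus strand): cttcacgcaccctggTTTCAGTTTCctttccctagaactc
Isg15 (chr4:156200860-156200911, minus strand): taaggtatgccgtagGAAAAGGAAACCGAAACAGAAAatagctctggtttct
Ifit1 (chr19:34640770-34640828, plus strand): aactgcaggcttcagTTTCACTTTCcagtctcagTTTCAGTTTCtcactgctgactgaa
Ifit3 (chr19:34583358-34583431, plus strand): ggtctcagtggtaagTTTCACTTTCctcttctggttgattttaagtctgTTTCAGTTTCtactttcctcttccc
Bst2 (chr8:71537572-71537617, minus strand): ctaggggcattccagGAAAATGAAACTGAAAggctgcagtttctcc
Isg15 had 3 overlapping matches between 57 and 78 bases before the start. Ifit1 and Ifit3 had 2 separate matches each, Bst2 had 2 that overlap, and Stat2 had 1 at 213 to 222 bases. The letters were not in the windows of Irf7, Irf9, Oasl2 and Ifitm3.

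How often a cell held a transcript divided the genes into a frequent and a rare set. The signalling genes Stat2 and Irf9 and the target Bst2 were the frequent ones. Stat2, a subunit of ISGF3, was detected in 207 of 1617 cells (12.8%, exact 95% interval 11.2 to 14.5). Irf9, which gives ISGF3 its DNA specificity, was detected in 324 cells (20.04%, 18.1 to 22.1), and Bst2 in 343 cells (21.2%, 19.2 to 23.3). These 3 genes gave 274, 408 and 472 UMIs. The other genes were detected in fewer than 4% of cells: Ifitm3 in 62, Oasl2 in 57, Irf7 in 48, Isg15 in 41, Ifit3 in 41 and Ifit1 in 35. Intervals cover counting error only, and those of the 6 rare genes overlapped their neighbours in this order. Ifit1, the rarest, had 2.16% (1.51 to 3.00) and Ifitm3, the most frequent of the 6, had 3.83% (2.95 to 4.89).

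Depth set these shares but not the division. With each cell thinned to 1400 UMIs, Stat2, Irf9 and Bst2 were detected in 5.88%, 9.89% and 10.8% of cells, and the 6 rare genes in 1.05% (Ifit3) to 2.04% (Oasl2). The 879 wells under the minimum held 97 UMIs of the 9 genes, or 278 counts per 1000000 UMIs (CPM), beside 316 CPM in the cells. One of those wells held at least 5 of them.

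The rare genes were concentrated in few cells. The 16 cells with the most UMIs of a gene, 1% of all, held 64.2% of those of Ifit1, 62.1% of Ifit3, 58.9% of Oasl2, 56.9% of Isg15, 55.9% of Ifitm3 and 54.9% of Irf7. For the frequent genes the share was 21.2% for Stat2, 14.8% for Bst2 and 12.5% for Irf9. A low total raises this share on its own, so each gene was set beside the genes with totals between 50% and 200% of its own. The share of Oasl2 was reached by 17 of 4753 such genes and that of Ifitm3 by 16 of 4794, and the medians of these genes were 25.2% and 24.5%. Ifit3 was reached by 2.27% of such genes, Irf7 by 3.70%, Ifit1 by 7.67% and Isg15 by 11.2%. Stat2 and Bst2 were reached by 17.2% and 19.8%, and Irf9 by 56.5%, at a median of 13.1%. Irf9 was therefore spread like most genes of its level, and Oasl2 and Ifitm3 were at the far end.

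**Figure D1:**
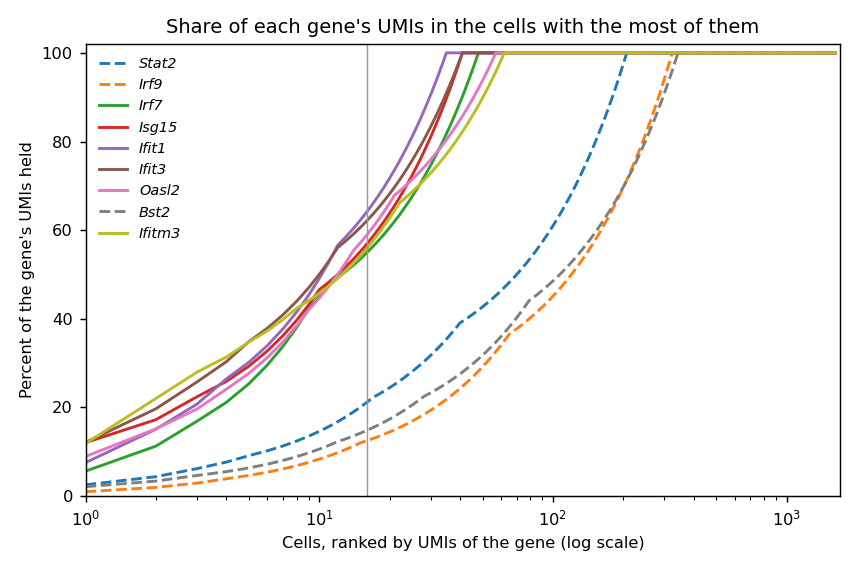
Cumulative share of each gene's UMIs (percent, y axis) against the number of cells ranked by that gene's UMIs (x axis, log scale), over 1617 cells. Dashed lines are Stat2, Irf9 and Bst2, and the grey line marks 16 cells, where the 6 rare genes lie between 54.9% and 64.2%.

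The same cells held several of the rare genes. Of the 1617 cells, 849 held none of the 1632 UMIs of the 9 genes, 433 held 1 and 187 held 2. At the other end, 49 cells (3.03%) held at least 5 and accounted for 29.8% of the UMIs, and 18 of them held at least 10 and accounted for 18.7%. The 49 cells were of different kinds. In 28, the UMIs came from 4 or more of the genes, a division made after the counts per cell were seen. The other 21 held 3 or fewer of the genes. No cell held all 9, and 5 cells held 8.

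The 28 cells with 4 or more of the genes held 5 to 29 member UMIs each and 21.3% of all. The cell with the most, from plate 4 after 3d HFD, held 10 UMIs of Oasl2, 5 of Stat2, 4 of Bst2, 3 of Irf7, 2 of Irf9, Ifit3 and Ifitm3 and 1 of Isg15 among 6995. A control cell of plate 11 held 5 UMIs of Oasl2, 4 of Ifit1, Ifit3 and Ifitm3, 3 of Stat2 and Isg15, 2 of Bst2 and 1 of Irf7 among 3359. A control cell of plate 13 held 7 UMIs of Isg15, 4 of Bst2 and 3 of Irf7 among its 22. The order of the genes thus varied from cell to cell. By the choice of the cells these genes had to be high in them, and the shares are a description: the 28 cells held 60.6% of the UMIs of Ifit3, 56.2% of Oasl2, 49.3% of Irf7, 46.6% of Isg15, 45.3% of Ifit1, 30.5% of Ifitm3, 20.4% of Stat2, 9.75% of Bst2 and 4.90% of Irf9. They held 2.17% of all UMIs, with a median of 3879.5 UMIs per cell against 2830 over all cells.

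**Figure D2:**
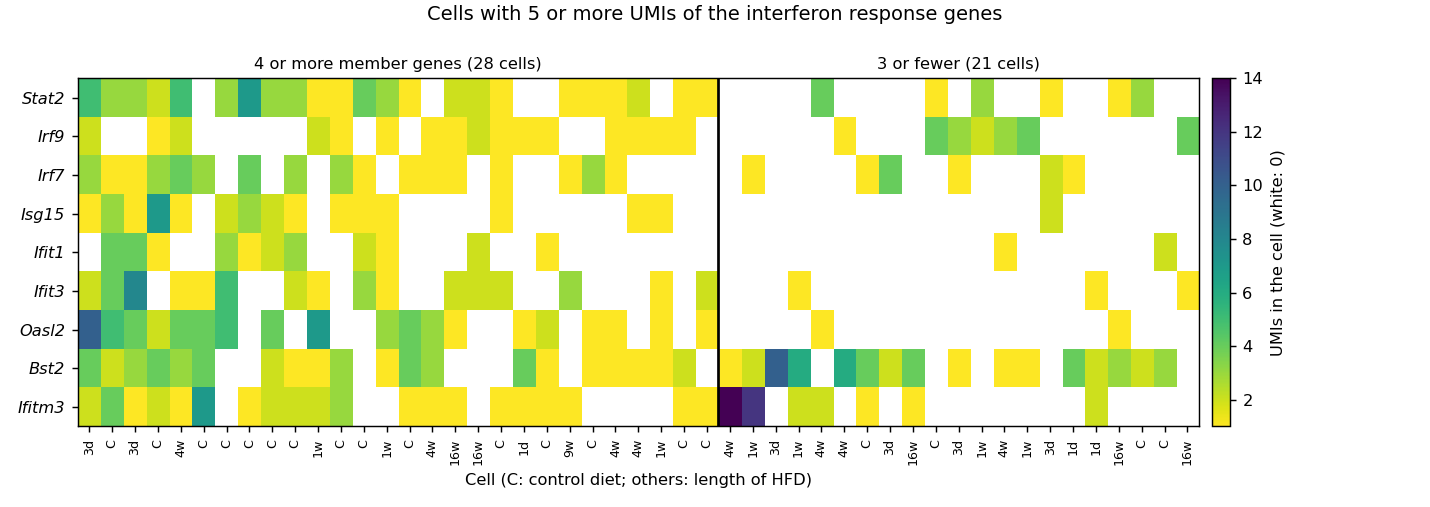
UMIs of the 9 genes (rows, colour scale from 1 to 14, white for 0) in the 49 cells with 5 or more of them (columns, ordered by total within each set and labelled by diet). Left of the line are the 28 cells with 4 or more of the genes, right of it the 21 with 3 or fewer, where single genes such as Ifitm3 (14 and 12 UMIs) or Bst2 (10) make up the total.

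The 28 cells carried microglial transcripts. All held at least 3 UMIs of the microglial list, at 29786 CPM for its 8 genes together against 32955 in the other cells. P2ry12, a purinergic receptor of homeostatic microglia, was at 2196 CPM in them and 3735 in the others. No monocyte, neutrophil, lymphocyte, endothelial or astrocyte list reached 3 UMIs in any of them. Of the other cells 0.944%, 0.126%, 0.315%, 0.315% and 0% did so, in the same order, so absence in 28 cells tells little. Several genes of these lists were not measured. Border macrophage and oligodendrocyte lists each reached 3 UMIs in 2 of the 28 cells, and the neuronal list in 3. The shares of the other cells were 1.07%, 1.38% and 2.96%. The whole border macrophage list was at 98.2 CPM in the 28 cells and 49.7 in the others. Of its 6 measured genes, Mrc1 (62.5 against 25.3 CPM), Ms4a7 (26.8 against 8.51) and Lyve1 (8.93 against 5.74) were higher in the 28 cells, from 7, 3 and 1 UMIs, and Cd163, Pf4 and Cbr2 had no UMI there. Without the cells that hold other types' markers, cells with 4 or more of the genes held 18.0% of the member UMIs.

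Each rare gene was more often detected in cells with 3 or more UMIs of the other 8 genes than in cells with none. Irf7 was detected in 7 of 856 cells without any (0.818%), in 15 of 621 cells with 1 or 2 (2.42%) and in 26 of 140 cells with 3 or more (18.6%). The last cells were deeper, with medians of 2645.5, 2993 and 3970 UMIs, and after thinning to 1400 UMIs the shares for Irf7 were 0.467%, 1.45% and 7.86%. The thinned share rose to 15.4% from 0.581% for Oasl2, to 12.7% from 0.696% for Ifitm3, to 7.69% from 0.698% for Isg15, to 6.12% from 0.580% for Ifit3 and to 5.52% from 0.930% for Ifit1. In cells with 1 or 2 UMIs of the others, the thinned shares of Ifit3 (0.493%) and Ifit1 (0.817%) lay below those in cells with none. For the frequent genes the thinned share was also higher beside 3 or more UMIs of the other 8 than beside none, and went from 5.40% to 11.02% for Stat2, from 8.82% to 14.7% for Irf9 and from 10.1% to 20.2% for Bst2. Across all cells the largest correlation of UMIs was between the neighbours Ifit1 and Ifit3 (Pearson's r = 0.58 over 1617 cells), which were seen together in 7 cells. Oasl2 and Ifit3 followed (r = 0.45, 12 cells), then Irf7 and Isg15 (r = 0.40, 11 cells). These cells share libraries and differ in depth.

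Other genes of the pathway were examined in the 28 cells. Of a list of 64, 42 were in the authors' filtered gene list and measured at 50 UMIs or more. For the 9497 other genes at that level the median share of UMIs in these cells was 1.88%, and 5% of genes lay above 4.62%. Among the 42 pathway genes the median was 6.34%, and 23 lay above 4.62%. They were mostly induced effectors: 18 of 23 induced genes and 4 of 7 sensors exceeded that value, and none of 6 receptors and kinases did. Phf11b, an induced gene outside the filtered list and so not among the 23, had 19 of its 147 UMIs in the 28 cells (12.9%). Of the feedback inhibitors, Socs3 had none of its 212 UMIs there. Under the minimum of 50 UMIs, Usp18 had 13 of 42 and Socs1 0 of 30. Rsad2 (viperin, an antiviral radical SAM enzyme) had 36.0% of its 50 UMIs in them, Mx1 (a dynamin-like antiviral GTPase) 34.0% of 53, Ifi204 26.8% of 157 and Rtp4 26.5% of 117. The chemokine gene Ccl12 had 131 of 583 UMIs. Ifnar1 and Ifnar2, the receptor chains, had 2.17% and 2.06%, and Irf3 1.56%, near the median of all genes. The interferon genes Ifnb1, Ifna2, Ifna4 and Ifng were not among the genes listed for all plates.

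**Figure D3:**
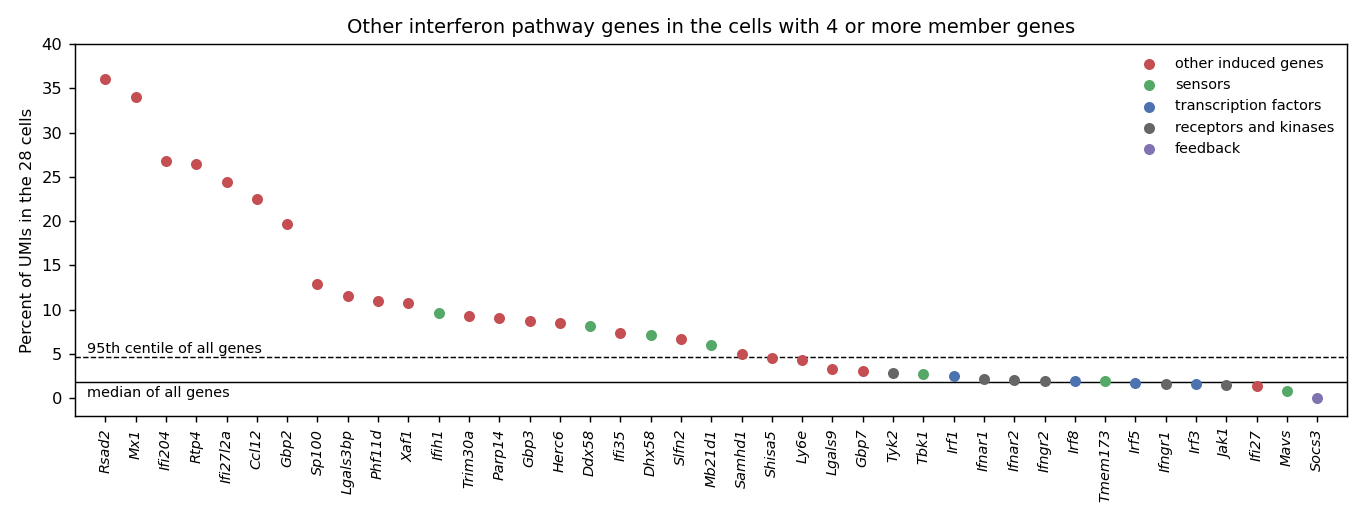
Share of each gene's UMIs found in the 28 cells with 4 or more of the 9 genes (percent, y axis). The x axis, ordered by share and coloured by role, holds 41 of the 42 other interferon pathway genes. These are in the filtered gene list and have at least 50 UMIs. The lines mark the median (1.88%) and the 95th centile (4.62%) of 9497 genes, and 22 of the genes drawn lie above the latter.

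The genes beyond the pathway list that stood highest in these 28 cells were Pydc4 (40% of 55 UMIs), AI607873 (38.9% of 72) and Nlrc5 (32.4% of 68), of which Nlrc5 is a regulator of MHC class I genes. Over all 49 cells with at least 5 member UMIs, the 10 genes with the largest shares were Lgals3 (58.1%), Xist (56.9%), Cd74 (53.8%), Pydc4 (50.9%), H2-Aa (49.1%), H2-Eb1 (48.0%), H2-Ab1 (46.8%), AI607873 (45.8%), Ifi27l2a (40.9%) and Vim (40.9%). That list mixed both kinds of cells. Pydc4, AI607873 and Ifi27l2a had more UMIs in the 28 cells than in the 21 others (22 against 6, 28 against 5 and 31 against 21). For Cd74, the invariant chain of MHC class II, 53.4% of the UMIs were in the 21 cells and 0.355% in the 28.

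The 21 cells with 3 or fewer of the genes held 5 to 15 UMIs of them, and those with the most held mainly Ifitm3 or Bst2. Of these cells, 5 held 50 or more MHC class II UMIs, and together the 21 held 49.3% of the MHC class II UMIs of the dataset. A well of plate 4 after 4w HFD had the most UMIs of all, 19711, and held 14 of the 118 UMIs of Ifitm3, 1 of Bst2 and none of the other 7 genes. The same well held 1546 MHC class II UMIs, 53 of 132 of the intermediate filament gene Vim, 34 of 62 of the lectin gene Lgals3 and 26 of 51 of Xist, the RNA of the inactive X chromosome of female cells, although the mice are described as male. A well of plate 5 after 1w HFD held 12 UMIs of Ifitm3 and 390 of MHC class II. A well of plate 4 after 3d HFD held 10 UMIs of Bst2 as its sole member gene and 370 of MHC class II. In the 28 cells no well held more than 6 MHC class II UMIs. Without wells of more than 3 times the median UMIs, a limit set after seeing the data, the 1% of cells with the most held 48.4% of the UMIs of Ifitm3, and its fold change after 3d was -0.67 on the log2 scale in place of -1.80. Ifitm3 and Bst2 thus had wells with many UMIs among both kinds of cells. The well of 19711 UMIs held 40 UMIs of the microglial list and 22 of the monocyte list. The plate 5 well held 232 and 40. The plate 4 well after 3d held 93 and 10, with 15 of the border macrophage list. Whether these wells held microglia was not tested.

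Cells with 4 or more of the genes occurred under every diet and on 11 of 13 plates, in 19 of the 69 groups of cells that share an identifier, a diet and a plate, with at most 3 in a group. They made up 15 of 722 control cells (2.08%, exact 95% interval 1.17 to 3.40), 1 of 161 after 1d (0.621%), 2 of 121 after 3d (1.65%), 3 of 172 after 1w (1.74%), 4 of 128 after 4w (3.12%, 0.858 to 7.81), 1 of 82 after 9w (1.22%) and 2 of 231 after 16w (0.866%, 0.105 to 3.09). These intervals cover counting error over pooled cells, which share plates and identifiers, and the diets were not tested on them. On the plates that held both diets, such cells were 3 of 150 after 1w against 9 of 150 control cells, 2 of 87 after 3d against 4 of 50, and 4 of 105 after 4w against 1 of 80. There were 1 of 161 after 1d against 2 of 155, 1 of 82 after 9w against 2 of 204, and 2 of 231 after 16w against 7 of 387. Control cells of plate 13 held 4 of them, and served as controls for 3d, 1w and 16w.

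Levels by diet were compared over 68 sums of cells, each from 1 identifier on 1 plate with at least 5 cells (28 control sums, 5 to 10 per HFD length). A sum held 22774 to 219199 transcripts. Levels, given in CPM as transcripts per 1000000 of a sum, varied as much among control sums as between diets. Irf7 ranged from 0 to 142.5 in control sums with a median of 13.8, and 7 of the 28 were at 0. It was at 0 in 6 of 7 sums after 1w and 15.1 in the other, at 0 in 5 of 6 after 9w and in 8 of 10 after 16w, but reached 66.2 after 3d, where the median was 25.2. The HFD groups all lay inside the control range for this gene.

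Isg15 had a control median of 0 and a highest control value of 289.8, from 9 cells of plate 13. After 1w it ranged from 0 to 17.5. Ifit1 was between 0 and 106.9 in control sums (median 5.44) and at 0 in all 6 sums after 9w, where 0 UMIs in 82 cells allow up to 9.69 CPM. On the 3 plates of the 9w cells the controls were at 14.5 CPM, at least 1.49-fold higher by this limit of 3 counts over the group. Its neighbour Ifit3 was highest in a sum of plate 4 after 3d, at 94.6, beside 0 to 14.9 in the other 5. Oasl2 showed the same sum at 141.9 beside 0 to 31.0, and this is the sum that held the 2 cells of 3d HFD with 8 of the genes.

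The frequent genes were present in most sums. Stat2 had medians of 51.1 in control sums, 35.9 after 1d, 31.9 after 3d, 32.3 after 1w, 70.1 after 4w, 49.6 after 9w and 47.6 after 16w. Irf9 had medians between 56.7 (9w) and 105.8 (1w), with 68.9 in the controls, and Bst2 between 54.9 (9w) and 88.3 (4w), with 84.0 in the controls. Ifitm3 had a control median of 14.8 and a range of 0 to 155.8. Its highest values after HFD, 181.4 after 1w and 168.7 after 4w, came from the sums with the MHC class II wells described above. All groups overlapped for every gene.

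**Figure D4:**
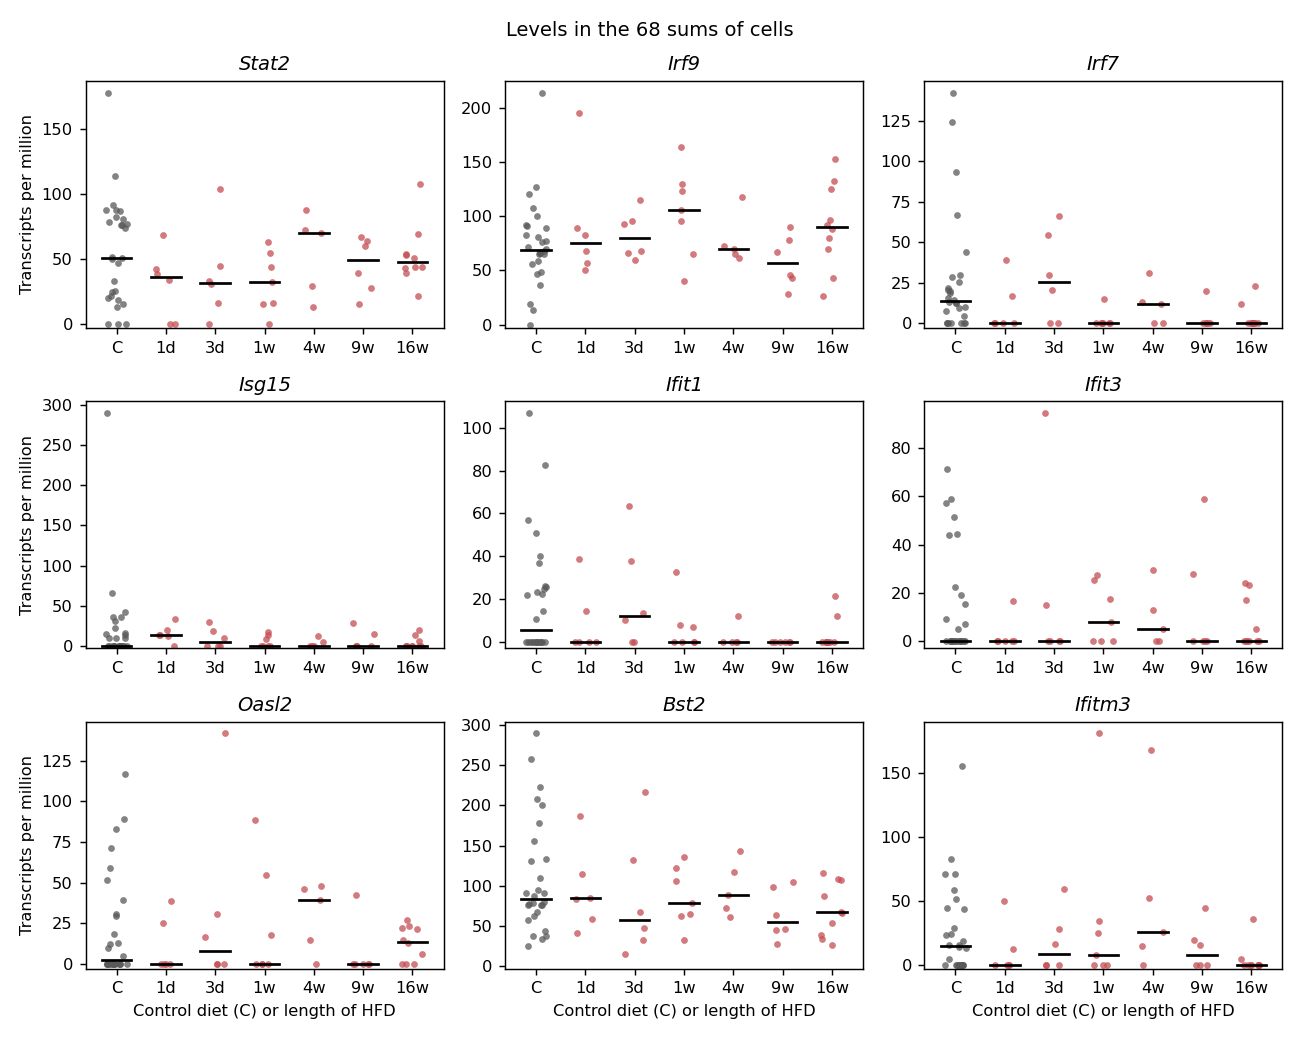
CPM of each gene (transcripts per 1000000, y axis) in the 68 sums of cells by diet (x axis, C for control). Each point is a sum of at least 5 cells of 1 identifier on 1 plate, grey for control and red for HFD, and bars are medians. Control sums cover the range of most HFD sums, and single sums carry the highest values.

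Each HFD length was tested against control with a term for the plate (edgeR quasi-likelihood test, Benjamini-Hochberg adjustment over 9502 genes). None of the 9 genes passed the threshold of 0.05 at any length or in the test over all lengths. Few genes of the whole table did: 0.21% over all lengths, 0% after 1d, 0.0526% after 3d, 0.0631% after 1w, 0.0947% after 4w, 0% after 9w and 0.0316% after 16w. At an unadjusted p under 0.05 stood 2 of the 9 in the test over all lengths (4.75% of all genes), 1 after 1d (4.35%), 1 after 3d (5.17%), 4 after 1w (3.72%), 0 after 4w (4.29%), 1 after 9w (5.36%) and 2 after 16w (4.38%). All 9 of those single-length values lay below control.

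The 4 genes after 1w were Irf7, Stat2, Isg15 and Ifit1. Irf7 had a log2 fold change of -3.08 ± 1.62 (SE, unadjusted p = 0.0013, adjusted p = 0.80 by edgeR) and the smallest p of the 9 genes at any length. Its UMIs on the 4 plates with both diets were 0 in 150 HFD cells and 19 in 150 control cells, or at least 7.29-fold lower in CPM at 3 counts over the group. Of the 19 control UMIs, 15 lay in 6 cells with at least 5 member UMIs. Stat2 was at -1.03 ± 0.52 (adjusted p = 1.00 by edgeR), and Isg15 at -1.69 ± 0.96. For Isg15, 15 of 16 control UMIs on these plates were in 5 such cells. Some cells carried all 4 genes. A control cell of plate 7 held 7 UMIs of Stat2, 4 of Irf7, 3 of Isg15 and 1 of Ifit1. A control cell of plate 13 held 2, 3, 7 and 1 of them, and another 3, 3, 1 and 3. The values of the 4 genes after 1w are therefore not separate results. The median of the 9 genes after 1w was -0.91, beside 0.04 for all genes, and 8 of 9 lay below 0. At the other lengths the median was between -0.05 (3d, with 0.14 for all genes) and -0.52 (1d, with 0.01).

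For the other genes the values were taken at the length with their smallest p. Ifitm3 was at -1.80 ± 0.90 after 3d (adjusted p = 0.94 by edgeR), from 3 UMIs in 87 HFD cells and 5 in 50 control cells of the shared plates. Ifit1 was at -3.21 after 9w, a value set by the prior count because all 9w sums were at 0. Bst2 was at -0.48 ± 0.29 after 16w, Irf9 at 0.64 ± 0.39 after 1w, Ifit3 at -1.98 ± 1.75 after 1d and Oasl2 at -1.04 ± 1.27 after 9w. Irf9 was the only one of the 9 with a positive value at its smallest p. For the rare genes the 95% intervals spanned several log2 units, from -6.27 to 0.10 for Irf7 after 1w and from -5.42 to 1.46 for Ifit3 after 1d. For Bst2 after 16w the interval was -1.06 to 0.09.

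**Figure D5:**
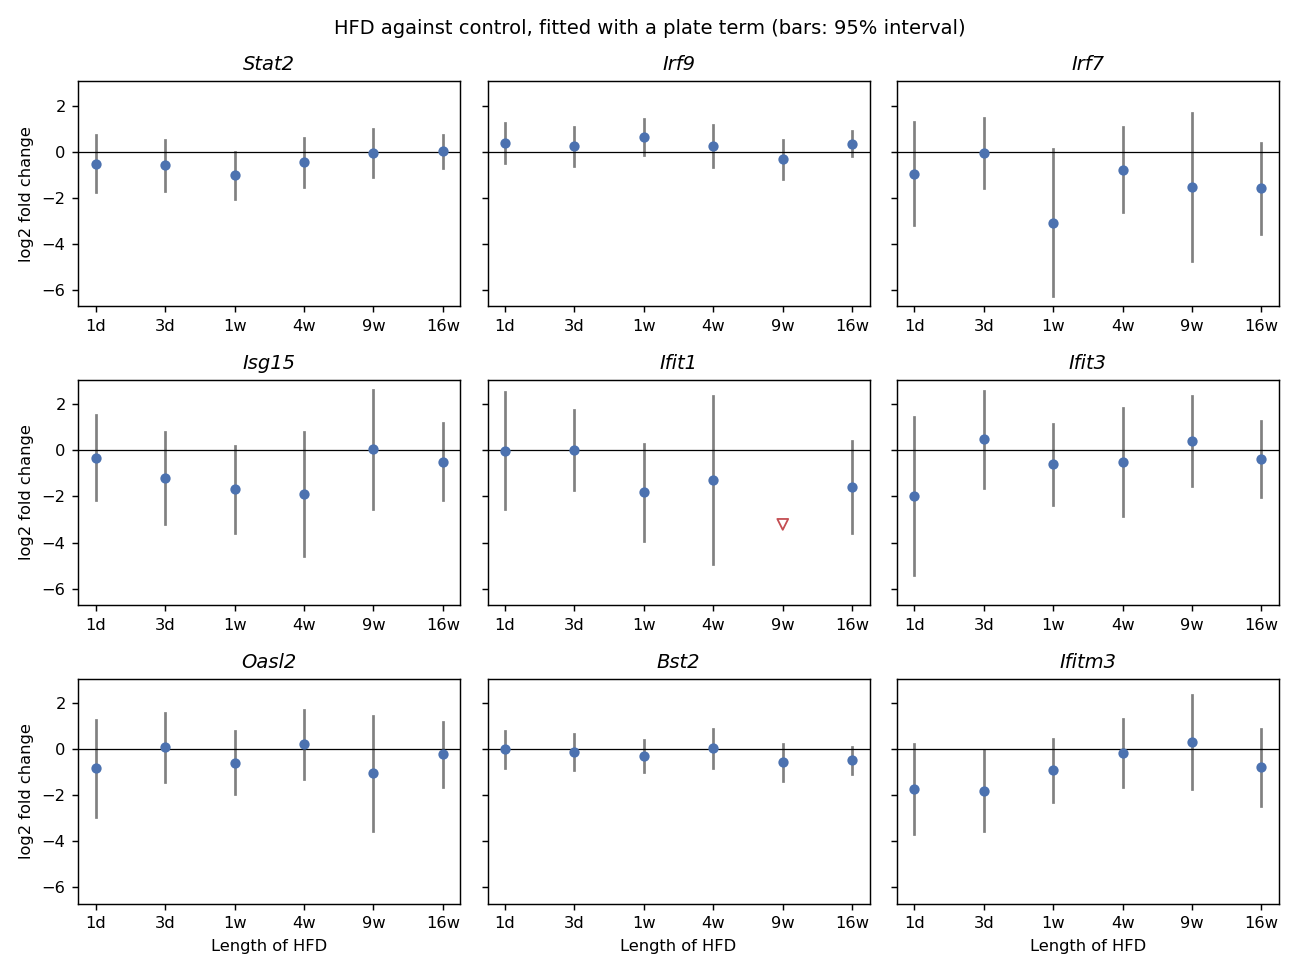
Log2 fold change of each HFD length against control (y axis) for the 9 genes, from the fit with a plate term. Points are estimates and bars 95% intervals; the open triangle marks Ifit1 after 9w, where all sums were at 0 and no interval was given. No gene passed the adjusted threshold at any length.

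Within plates, the 9 genes together were lower than control on both plates after 1d, 1 of 2 after 3d, 3 of 4 after 1w, 0 of 2 after 4w, 3 of 3 after 9w and 5 of 6 after 16w. Lengths on a plate share its control cells, and the higher values after 3d and 1w and 1 of those after 4w rest on the 7 control cells of plate 4. On plate 13, the 9 genes together were at 672 CPM in 43 control cells and at 213 after 3d, 149 after 1w and 184 after 16w, and every one of the 9 was lower in HFD cells at each length. Of the 4 control sums, 3 (631, 998 and 1118 CPM) stood above all HFD sums of that plate (161 to 223), while the other was at 203. On plate 4 the 7 control cells held 2 UMIs of the 9 genes, 67.3 CPM, and the HFD cells were at 561 after 3d, 354 after 1w and 393 after 4w. On plate 7 the values were 423 after 1w and 446 in controls. On plate 9 they were 212 and 495, with 3 cells holding 4 or more of the genes among the controls and none after 1w. The higher value after 16w was on plate 2, at 437 against 244.

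Of the 42 other pathway genes, 1 passed the threshold, Ccl12, a CCR2-binding chemokine that was lower after 4w (log2 fold change -2.15 ± 0.48, adjusted p = 0.0037 by edgeR) and passed over all lengths (adjusted p = 0.046). Its level was 0 to 103 CPM in the 5 sums after 4w and 0 to 1244 in control sums, so the groups overlapped. The call was lost under 7 of 32 alternatives, with a fold change that stayed below 0 in all 32. It was -2.09 without plates 4 and 5 (adjusted p = 0.99 by edgeR), -2.23 without the identifier L2 (adjusted p = 0.10 by edgeR), -2.03 with the identifier as a random effect (adjusted p = 0.74 by limma), -2.44 with DESeq2 (adjusted p = 1.00), -2.22 with filterByExpr (adjusted p = 0.27 by edgeR), -1.40 without a plate term (adjusted p = 0.59 by edgeR) and -1.08 with 4w fitted alone (adjusted p = 1.00 by edgeR). Of the UMIs of Ccl12 over all cells, 22.5% were in the 28 cells described above. The 4 MHC class II genes were all called higher after 3d, 1w and 4w, by 2.19 to 4.08 on the log2 scale (edgeR). With DESeq2 or filterByExpr no gene of the table was called at these lengths, and the calls were also lost after 3d and 4w with each length fitted alone and after 3d without the identifier M24. Not all 4 can have kept their call where fewer than 4 genes of the table were called. This held with the identifier as a random effect after 3d (1 gene, limma) and 4w (3 genes). With DESeq2 size factors it held after 3d (3 genes). It also held without cells with other types' markers after 1w (1 gene) and without plates 4 and 5 after 4w (2 genes). Leaving out 1 identifier gave as few as 3 genes after 1w. Wells that carry the MHC class II genes, described above, also held UMIs of Ifitm3 and Bst2. Without plates 4 and 5, Ifitm3 was at -4.05 after 3d and Bst2 at -0.51 after 16w. The prior count set that value of Ifitm3. Its 3d cells left, 40 of plate 13, held 0 UMIs of it, beside 5 in 43 control cells. Without the cells that hold markers of other cell types, Ifitm3 was at -0.91 and Bst2 at -0.45, with no call in either case.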

How the data were processed

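Single cells were sorted into 13 plates of 192 wells, each plate 1 deposited library, and sequenced by CEL-Seq2. Per the labels' processing notes the authors used FastQC, STAR and featureCounts on mm10. The deposited plate tables hold estimated counts, which the authors corrected for UMI collisions with 4096 tags, and whole UMIs were recovered by inverting that correction. The authors' filtered table gave only its list of 17280 gene names; 843 of its columns were not used. Wells with at least 1500 transcripts over those genes were kept as cells. The table of wells gave diet and identifier. Doublets were not called, because each well received 1 sorted cell, and all 192 well barcodes recur on every plate.

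Estimated counts were summed per identifier, diet and plate (at least 5 cells), rounded and fitted in edgeR 4.0.16 (quasi-likelihood, TMM, diet and plate terms, genes with a total of at least 50, Benjamini-Hochberg over 9502 genes, 0.05). An identifier on several plates enters more than once, so p-values measure the spread between sums, which may be technical. Shares of cells carry exact binomial 95% intervals. SEs are Wald errors of the fit. Genes named beyond the 9 are pathway genes past the threshold and the 10 genes with at least 50 UMIs whose UMIs lay most in cells with at least 5 member UMIs; the other pathway genes, Pydc4, AI607873 and Nlrc5 in the 28 cells and the wells described singly were chosen after their values were seen. Alternatives were DESeq2 1.42.0, limma 3.58.1, other filters and scaling, a minimum of 3000 transcripts, thinning to 1400 UMIs, cells without other types' markers, and leaving out plates or identifiers. Leaving out wells with more than 3 times the median UMIs, and all results on cells with at least 4 of the genes, were added after seeing the data. The member genes and gene lists were chosen with earlier results of these data known. The fits were tested on simulated data in which only genes with higher counts were changed, so that test does not cover the rare genes. Promoter letters are from RefSeq (GRCm38.p6) and gene positions from GENCODE. Tools were R 4.3.3, Python 3.11.15 and scipy 1.17.1. Some values, among them 1 pathway gene, are not reported here.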

Additional observations from a re-analysis of the deposited data

Results flagged for a closer look

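In 15 of 59 sets of 5 to 10 HFD sums, 1 sum stood apart from the others of its diet and gene by Dixon's criterion, where chance gives about 1 in 20. That rate is for continuous values and does not hold for these counts, so the 15 cannot be set against it. Some of the 15 had 1 sum above 0 and the rest at 0, and such a set is always picked out. After 1d, the sum of M12 on plate 8 had 194.6 CPM (transcripts per 1000000) of Irf9 and 38.9 of Ifit1, and the sum of M6 on plate 6 had 16.8 of Ifit3 and 50.4 of Ifitm3. After 3d, the sum of M25 on plate 4, with both 3d cells that held 8 of the genes, had 94.6 of Ifit3 and 141.9 of Oasl2. After 1w, sums of plate 5 had 15.1 of Irf7 (M23), 32.8 of Ifit1 (M22) and 181.4 of Ifitm3 (M23). After 4w, sums of plate 4 had 117.7 of Irf9 (M21) and 12.0 of Ifit1 (M20). After 9w, sums of plate 10 had 19.6 of Irf7 (M8) and 42.6 of Oasl2 (M7). After 16w, M6 on plate 10 had 23.1 of Irf7 and L4 on plate 2 had 35.8 of Ifitm3.

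Wells outside the comparisons also held these transcripts: 97 UMIs of the 9 genes lay in the 879 wells with fewer than 1500 transcripts, and the most in 1 such well was 7.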

How the results depend on the processing

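No member gene was called in any of 31 settings, and the 9 fold changes given in the report kept their sign in all 264 values recomputed, in 25 to 32 settings per gene. Their size moved: Irf7 after 1w lay between -4.48 and -1.81, Ifitm3 after 3d between -4.05 and -0.39 and Oasl2 after 9w between -3.27 and -0.12. The -4.05 of Ifitm3 came without plates 4 and 5, where all 3d sums left were at 0 and the prior count set it. Low detection of the rare genes limits these values, and filterByExpr left only Bst2 of the 9 to test. The causes of the changes below were not tested.

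The number of genes called was 20 over all lengths, 0 after 1d, 5 after 3d, 6 after 1w, 9 after 4w, 0 after 9w and 3 after 16w. With filterByExpr (2336 genes tested) it was 0 over all lengths and after 3d, 1w, 4w and 16w. With DESeq2 it was 0 over all lengths and after 3d, 1w, 4w and 16w, and 1 after 9w. Without a filter it was 4 after 9w, and with DESeq2 size factors 3 after 3d. Without a plate term it was 77 over all lengths, 3 after 1d, 34 after 3d, 17 after 1w and 36 after 4w. With limma voom and the identifier as a random effect it was 1 after 1d, 1 after 3d, 12 after 1w, 3 after 4w, 1 after 9w and 6 after 16w. With cells of at least 3000 transcripts it was 13 over all lengths, 1 after 9w and 1 after 16w. Without cells with other types' markers it was 12 over all lengths, 1 after 1w, 4 after 4w and 2 after 9w. Without plates 4 and 5 it was 11 after 1w, 2 after 4w and 3 after 9w. With each length alone it was 0 after 3d, 0 after 4w and 1 after 9w. Leaving out 1 identifier gave 0 to 6 after 3d (0 without M24), 3 to 7 after 1w, 0 to 3 after 9w and 0 to 4 after 16w (0 without L4).

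Cells with at least 5 member UMIs were 5.35% at a minimum of 3000 transcripts and 0.866% after thinning, and held 38.4% and 14.4% of the member UMIs. Cells with at least 4 of the genes were 2.82% and 0.618%, with 26.5% and 10.4% of the UMIs. Without cells with other types' markers the shares of UMIs were 24.3% and 18.0%. Without plates 4 and 5, cells with at least 5 UMIs held 26.1%. In control cells those with at least 4 genes held 26.7%. With a minimum of 3 UMIs, 9.15% of cells held 50.6%, and with 10, 1.11% held 18.7%.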
